A study of Mus with 2 samples.

Results

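Spp1, Gpnmb, Trem2, Apoe, Cd9, Fabp5, Lgals3 and Lpl are 8 genes often named together as markers of lipid-handling macrophages. They were chosen by name, and 8 of 8 were found among the 32285 features counted in each of 2 tumor sections. The tumors grew from CT26, a mouse colon carcinoma cell line, after 200000 cells had been placed under the skin of balb/c mice labelled as 6 to 8 weeks old, the strain from which the line derives. The rIL7 mouse received 10 µg of recombinant mouse interleukin-7 into the peritoneum on days 11 and 13, the control mouse received PBS, and both tumors were taken on day 15. From each, 1 frozen section of 10 µm was read with Visium, which captures polyadenylated RNA on a grid of spots and counts each tagged molecule once by its unique molecular identifier (UMI). Each group therefore has 1 sample, no test between groups was possible, and the 95% intervals given below cover counting error only.

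Macrophages that take up dying cells and lipoproteins have to store, break down or export the lipid they ingest. Trem2 is a surface receptor that senses lipids and signals through the adaptor Tyrobp, Lpl cleaves triglycerides in lipoproteins, Fabp5 carries fatty acids inside the cell, and Apoe carries cholesterol out of it. Spp1 encodes osteopontin, a secreted ligand of CD44 and integrins, which tumor cells and other cells can also make. Gpnmb, Cd9 and Lgals3 encode a glycoprotein of the cell surface and lysosome, a tetraspanin and galectin-3.

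The control section held 22951678 UMIs in 2219 kept spots, with a median of 9623 per spot, and the rIL7 section 25729233 UMIs in 1950 spots, with a median of 12921.5. The sections shared 1701 spot barcodes, which are positions printed alike on every capture area and not shared cells. Several cell types can share a spot, and more cells of a type and more RNA per cell cannot be told apart in its counts. The general macrophage list (10 genes, among them Cd68, Csf1r, Adgre1, C1qa, C1qb, C1qc, Fcgr1, Aif1 and Lyz2) had all 10 genes present, with a summed level of 3679 counts per 1000000 UMIs (CPM) in control tissue and 4427 CPM in rIL7 tissue. Skeletal muscle genes were summed to 63.9 and 6.96 CPM, and adipocyte genes to 1.05 and 12.4 CPM. Log2 ratios shifted by 0.01 under either TMM or median-of-ratios scaling.

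The first comparison asked whether the 8 genes differed in level between the sections. They did not move together: Fabp5 and Lpl were higher in the rIL7 section, Gpnmb was lower, and the other 5 differed by less than 1.3-fold. Together the 8 genes held 0.502% of all control UMIs and 0.592% of all rIL7 UMIs, and Spp1 alone made up 47.3% and 48.2% of that. The mean of 20 CPM set for counts over all genes was reached by 7 genes and not by Lpl. Of those 7 genes, 1 was at least 1.5-fold higher in rIL7 and 1 at least 1.5-fold lower, against 1.97% and 1.27% of the 7613 genes compared, or 3.24% either way. Counting intervals of the ratio lay above 1 for 5 of the 8 genes and below 1 for 2, beside 25.5% and 28.5% of the genes compared. The 5 include Lpl, which those shares do not cover. Such intervals narrow as UMIs rise, and that of the abundant Lgals3 excluded 1 at a ratio of 1.04. The shares are therefore not matched to these genes in level. The median log2 ratio over all 8 genes was 0.16 (0.14 to 0.18), and 0.05 over the 7 that reached the minimum, beside -0.01 over the genes compared.

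**Figure D1:**
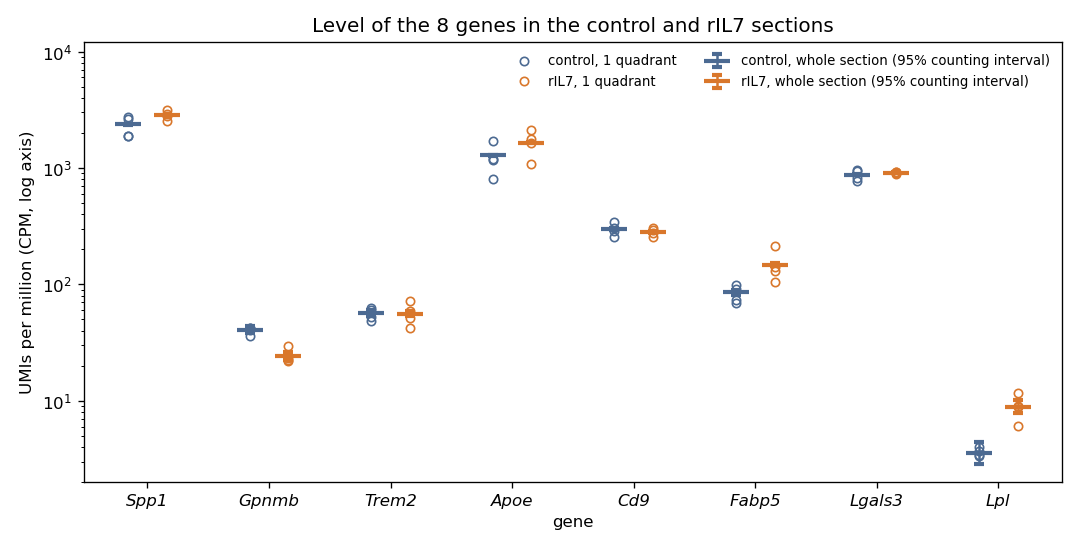
Level of each gene in the 2 sections in CPM on a log axis, with the whole section as a horizontal mark with its 95% counting interval and the 4 quadrants of each section as open circles. The quadrants of Fabp5 and Lpl lie higher in rIL7 and those of Gpnmb lower, without overlap, while those of the other 5 genes overlap. Among the genes compared, which leave out Lpl, 10.0% lie apart with rIL7 higher and 11.8% with rIL7 lower.

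Spp1, the secreted ligand, stood at 2372 CPM in the control section (54435 UMIs) and 2853 CPM in the rIL7 section (73414 UMIs). When each section was divided into 4 quadrants at its median row and column, Spp1 ran from 1871 to 2748 CPM in the control and from 2520 to 3153 CPM in rIL7. The ranges overlapped, and the spread within the control section (1.47-fold) exceeded the difference between the sections (1.20-fold, 1.19 to 1.22). Quadrants are parts of 1 section and no replicates.

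Among the surface proteins, Gpnmb stood apart. It had 40.8 CPM in control tissue (937 UMIs) and 24.4 CPM in rIL7 (627 UMIs), a ratio of 0.597 (0.539 to 0.661). Its highest rIL7 quadrant, at 29.6 CPM, lay below its lowest control quadrant, at 36.0 CPM, a separation seen for 11.8% of the genes compared. Trem2, the lipid-sensing receptor, was at 56.9 CPM against 56.0 CPM in rIL7, and the interval of the ratio, 0.913 to 1.06, included 1. The ratio of Cd9 was 0.945 (0.915 to 0.977), from 299 to 282 CPM, and its quadrants overlapped.

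Of the lipid carriers and the lipase, Apoe stood at 1286 CPM in control tissue and at 1643 CPM in rIL7 tissue, with a rIL7/control ratio of 1.28 (1.26 to 1.30). Its quadrants ran from 802 to 1692 CPM in the control and from 1082 to 2117 CPM in rIL7, so the spread within a section exceeded the difference between sections. Fabp5 had 85.4 CPM (1960 UMIs) and 147.6 CPM (3798 UMIs), a ratio of 1.73 (1.64 to 1.83). Every rIL7 quadrant of Fabp5, from 104 to 214 CPM, lay above every control quadrant, from 68.8 to 99.5 CPM, which 10.0% of the genes compared also showed. Lpl was scarce, with 82 UMIs in the control and 229 in rIL7, or 3.57 and 8.90 CPM, a ratio of 2.49 (1.93 to 3.25). Its quadrants, from 3.32 to 4.02 CPM and from 6.08 to 11.7 CPM, did not overlap. The share of 10.0% does not cover Lpl, which did not reach the mean of 20 CPM, and no share was counted for genes that scarce. For Lgals3, the galectin, the ratio was 1.04 (1.02 to 1.06), from 875 to 909 CPM, and its quadrants overlapped.

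Adipocyte transcripts moved with Lpl, which adipocytes also make. The adipocyte list (Adipoq, Plin1, Cidec, Lep and Cfd) rested on 24 UMIs in the control and 319 in rIL7, and its quadrants ran from 0.548 to 2.12 CPM and from 2.26 to 33.8 CPM. In the rIL7 section Lpl was at 40.3 CPM (29.7 to 53.5) in the 92 spots with an adipocyte UMI and at 7.38 CPM (6.34 to 8.53) in the 1858 spots without one. Among spots without an adipocyte UMI in either section, the ratio of Lpl was 2.04 (1.57 to 2.69), that of Fabp5 1.71 (1.61 to 1.80) and that of Gpnmb 0.600 (0.541 to 0.666). The list is scarce, so a spot with no adipocyte UMI is not shown to lack adipocytes, and their part in the Lpl difference was not tested.

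Relative to macrophage transcripts the rIL7/control ratio of each gene was lower than in CPM. Per 100 macrophage list UMIs there were 64.5 Spp1 UMIs in control tissue and 64.4 in rIL7 tissue, with a ratio of 0.9997 (0.989 to 1.01). This depended on Lyz2, a lysozyme gene that neutrophils also express, which made up 37.1% and 45.9% of the list's UMIs. Without Lyz2 the Spp1 ratio was 1.16 (1.15 to 1.18). Gpnmb had 1.11 UMIs per 100 macrophage list UMIs in control and 0.550 in rIL7 tissue, and Fabp5 had 2.32 and 3.33. Without Lyz2 their ratios were 0.577 (0.520 to 0.639) and 1.67 (1.58 to 1.76). The full-list ratio was 0.818 (0.759 to 0.883) for Trem2, 0.786 (0.760 to 0.812) for Cd9 and 0.863 (0.847 to 0.880) for Lgals3. It was 1.06 (1.05 to 1.08) for Apoe and 2.07 (1.60 to 2.70) for Lpl. Without Lyz2 the ratios of Trem2, Cd9 and Lgals3 were 0.952 (0.882 to 1.03), 0.913 (0.884 to 0.944) and 1.004 (0.985 to 1.02). Those of Apoe and Lpl were 1.23 (1.22 to 1.25) and 2.41 (1.86 to 3.14).

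The next comparison asked where in the tumor the 8 genes were found. Spots up to 2 grid steps from the outline of the main tissue piece were called edge (401 control and 330 rIL7 spots) and the remainder interior (1806 and 1599). In the control section 1 of the 8 genes, Fabp5, was at least 1.5-fold higher at the edge and 0 were 1.5-fold lower, against 0.565% and 0.788% of the genes compared. With an edge of 3 steps Fabp5, at a log2 ratio of 0.53, was under 1.5-fold, and the scarce Lpl, at 0.72, was over it. In the rIL7 section 2 genes, Apoe and Lpl, were at least 1.5-fold higher at the edge and 1, Gpnmb, lower, against 4.41% and 4.78% (9.19% either way; 1.35% in the control). Between the sections, 3 of the 8 genes differed by at least 1.5-fold among edge spots (Apoe, Lpl and Gpnmb) and 3 among interior spots (Fabp5, Lpl and Gpnmb), beside 10.3% and 3.02% of the genes compared. These counts of the 8 include Lpl, which did not reach the mean of 20 CPM. The shares of the genes compared therefore do not cover Lpl.

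In the control tumor Apoe was at 1433 CPM at the edge and 1248 CPM inside, a ratio of 1.15 (1.12 to 1.18). In the rIL7 tumor it was at 3179 CPM at the edge and 1348 CPM inside, a ratio of 2.36 (2.31 to 2.41). The profile was steep, with 3940 CPM on the outermost ring, 2525 at 2 steps, 1815 at 3 steps and 1211 at 9 to 11 steps, and the interior of the rIL7 section differed from the control interior by 1.08-fold (1.06 to 1.099). Edge against edge, Apoe was 2.22-fold higher in rIL7 (2.15 to 2.29). Macrophage transcripts moved with it, at 6962 CPM at the edge and 3954 CPM inside the rIL7 tumor and 3747 and 3659 CPM in the control, as did MHC class II genes, at 7617 and 2355 CPM in rIL7 and 3069 and 2573 CPM in the control. Other lists were higher at the rIL7 edge too: T cell genes at 290.3 CPM at the edge and 79.9 CPM inside (36.2 and 32.2 CPM in the control), fibroblast genes at 3317 and 1938 CPM (1928 and 1979) and endothelial genes at 113 and 52.4 CPM (82.1 and 69.2). Over whole sections the T cell list was at 33.0 CPM for control and 113 CPM for rIL7, with quadrants that did not overlap, a separation for which no share over lists was counted. The part of these lists in the Apoe edge level was not tested. Per 100 macrophage list UMIs, Apoe had 45.7 UMIs at the rIL7 edge and 34.1 inside, a ratio of 1.34 (1.31 to 1.37), which was smaller than the ratio in CPM and still above 1.

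Lpl had 24.2 CPM at the edge of the rIL7 tumor (95 UMIs) and 5.22 CPM inside it (113 UMIs), a ratio of 4.63 (3.49 to 6.14). In the control the edge held 20 Lpl UMIs, and the ratio of 1.39 had an interval from 0.795 to 2.35. Adipocyte genes were at 30.1 CPM at the rIL7 edge and 2.13 CPM inside. In the 290 edge spots of the rIL7 section with no adipocyte UMI, Lpl was at 20.3 CPM (15.8 to 25.6), which was 4.49-fold (2.70 to 7.79) the level in the control edge spots chosen the same way.

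Spp1 ran the other way from Apoe in the rIL7 tumor. It was at 2262 CPM at the edge and 2966 CPM inside, a ratio of 0.763 (0.746 to 0.780), and went from 2124 CPM on the outermost ring to 3136 CPM at 12 or more steps. In the control tumor the profile was flatter, from 2226 CPM at 2 steps to 2586 CPM at 12 or more, with an edge ratio of 0.960 (0.939 to 0.981). The rIL7/control ratio of Spp1 was 1.24 inside (1.23 to 1.26) and 0.986 at the edge (0.959 to 1.01).

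Gpnmb was lower at the edge in both sections, with a ratio of 0.713 (0.591 to 0.855) in the control and 0.460 (0.335 to 0.618) in rIL7, where the edge held 48 UMIs. It was lower in the rIL7 section in both zones, by ratios of 0.396 (0.279 to 0.554) at the edge and 0.614 (0.551 to 0.684) inside. Trem2 had edge ratios of 0.893 (0.771 to 1.03) and 0.966 (0.832 to 1.12) and Cd9 of 0.953 (0.896 to 1.01) and 0.962 (0.901 to 1.03), all with intervals that included 1. Lgals3 was at 0.992 (0.958 to 1.03) in the control and 0.882 (0.849 to 0.916) in rIL7. Per 100 macrophage list UMIs the rIL7 edge ratios were lower, at 0.549 (0.472 to 0.635) for Trem2, 0.546 (0.512 to 0.583) for Cd9, 0.501 (0.482 to 0.520) for Lgals3, 0.433 (0.424 to 0.443) for Spp1 and 0.261 (0.190 to 0.351) for Gpnmb. In the control they were 0.872, 0.931, 0.969, 0.937 and 0.696 in the same order.

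Fabp5 had a different shape in each section. In the control it was highest on the outermost ring, at 149 CPM (133 to 165), and 68.2 CPM (61.0 to 75.9) at 12 or more steps. In the rIL7 tumor it was high at both ends, at 202 CPM (182 to 224) on the outermost ring, 101 CPM (90.2 to 112) at 4 to 5 steps and 192 CPM (182 to 202) at 12 or more. The section difference in Fabp5 was 1.45-fold at the edge (1.29 to 1.63) and 1.87-fold inside (1.75 to 1.99), so for Fabp5 the interior ratio was the higher, where for Apoe and Lpl the edge ratio was. Edge against interior, the ratio in rIL7 was 1.20 (1.099 to 1.30), from 171 to 143 CPM, with a log2 ratio of 0.05 for an edge of 3 steps. Per 100 macrophage list UMIs the direction in rIL7 turned, with 2.46 Fabp5 UMIs at the edge and 3.62 inside, while in the control there were 3.15 and 2.09. Keratinocyte genes were at 118 CPM at the control edge and 40.7 CPM inside, and at 29.6 and 39.1 CPM in rIL7. Krt5 and Krt14 had 196 and 250 UMIs in the control and 0 and 1 in rIL7. Krt10 had 895 and 966 UMIs. The part of keratinocytes in the control edge level of Fabp5 was not tested.

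**Figure D2:**
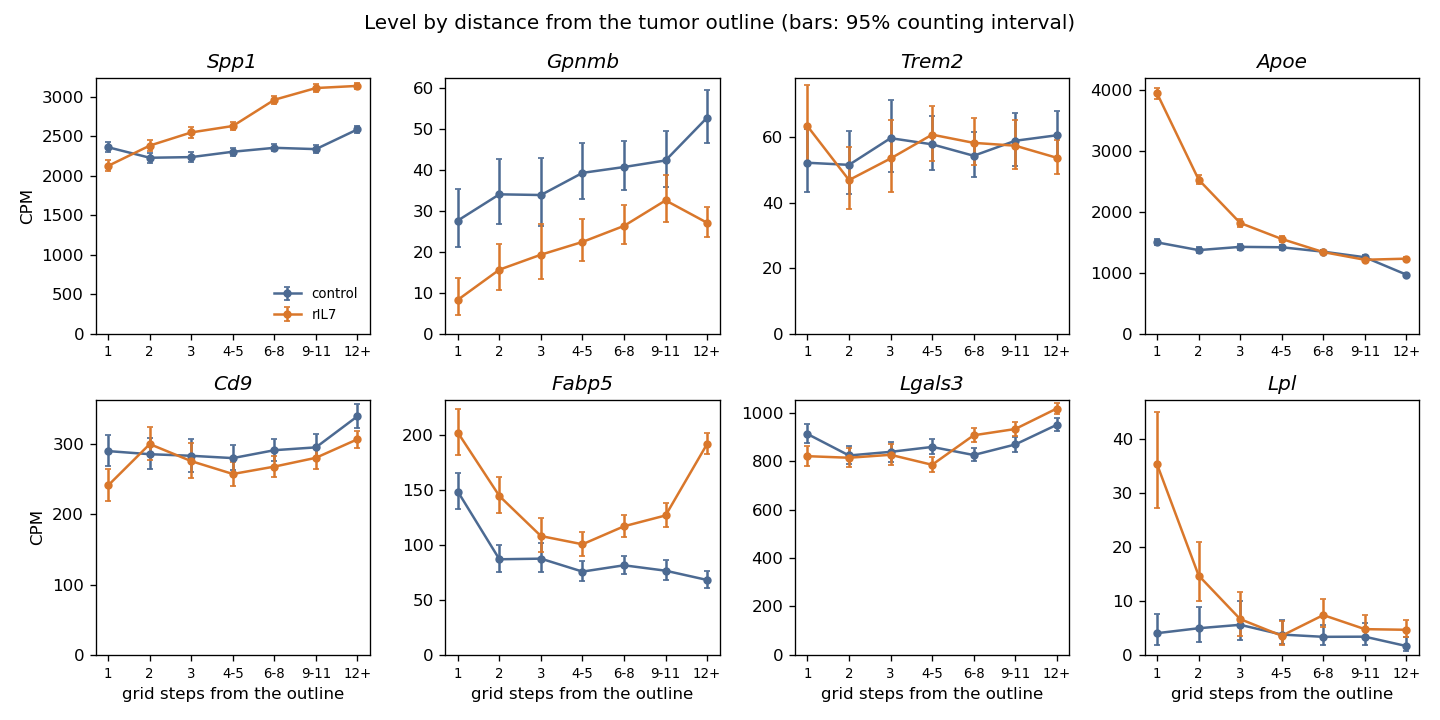
CPM of each gene, on the vertical axis, against grid steps from the tumor outline for the control and rIL7 sections, with 95% counting intervals as bars. Apoe and Lpl drop from the first ring inwards in rIL7, Spp1 climbs from 2124 to 3136 CPM, and Fabp5 in rIL7 is lowest at 4 to 5 steps.

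The maps of single spots showed where within a section the levels lay. To compare spots of unlike depth, each was thinned to 5900 UMIs, which left 2002 control and 1869 rIL7 spots and dropped 217 and 81 shallower ones. Spp1 had a UMI in 100% of the thinned spots of both sections (exact binomial lower bounds 99.8% each), Apoe in 99.2% and 99.6%, and Lgals3 in 99.2% and 99.0%. Cd9 was found in 81.4% and 78.97%, Fabp5 in 34.7% and 49.2%, Trem2 in 27.9% and 28.0%, Gpnmb in 21.3% and 13.4%, and Lpl in 1.95% and 4.55%. The adipocyte hormone gene Adipoq, a gene the tumor should lack, had a UMI in 0.0999% and 0.268% of these spots, and Acta1 of skeletal muscle in 11.4% and 0.642%. Cfd of the adipocyte list was found in 0.350% and 2.09%. Of the keratinocyte list, Krt5 was found in 0.749% and 0%, but Krt10 in 21.1% and 21.7%, about as often as Gpnmb in the control. The source of the Krt10 UMIs was not tested. Without thinning, at median depths of 9623 and 12921.5 UMIs, Gpnmb was found in 32.6% and 26.7% of spots and Fabp5 in 50.5% and 72.4%.

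Neighbouring spots were most alike in Spp1 and Apoe. The Spearman correlation of a spot with the mean of its neighbours was 0.630 in the control and 0.683 in rIL7 for Spp1, 0.592 and 0.695 for Apoe, and 0.174 and 0.291 for Lgals3. It was 0.0819 and 0.184 for Fabp5 and 0.113 and 0.123 for Cd9. For Trem2 it was 0.0304 and 0.0119, and with about 0.331 UMIs per thinned spot little correlation could be seen for that gene. All correlations here are across spots of 1 library that are not independent of their neighbours, so they describe a section and carry no p-value.

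**Figure D3:**
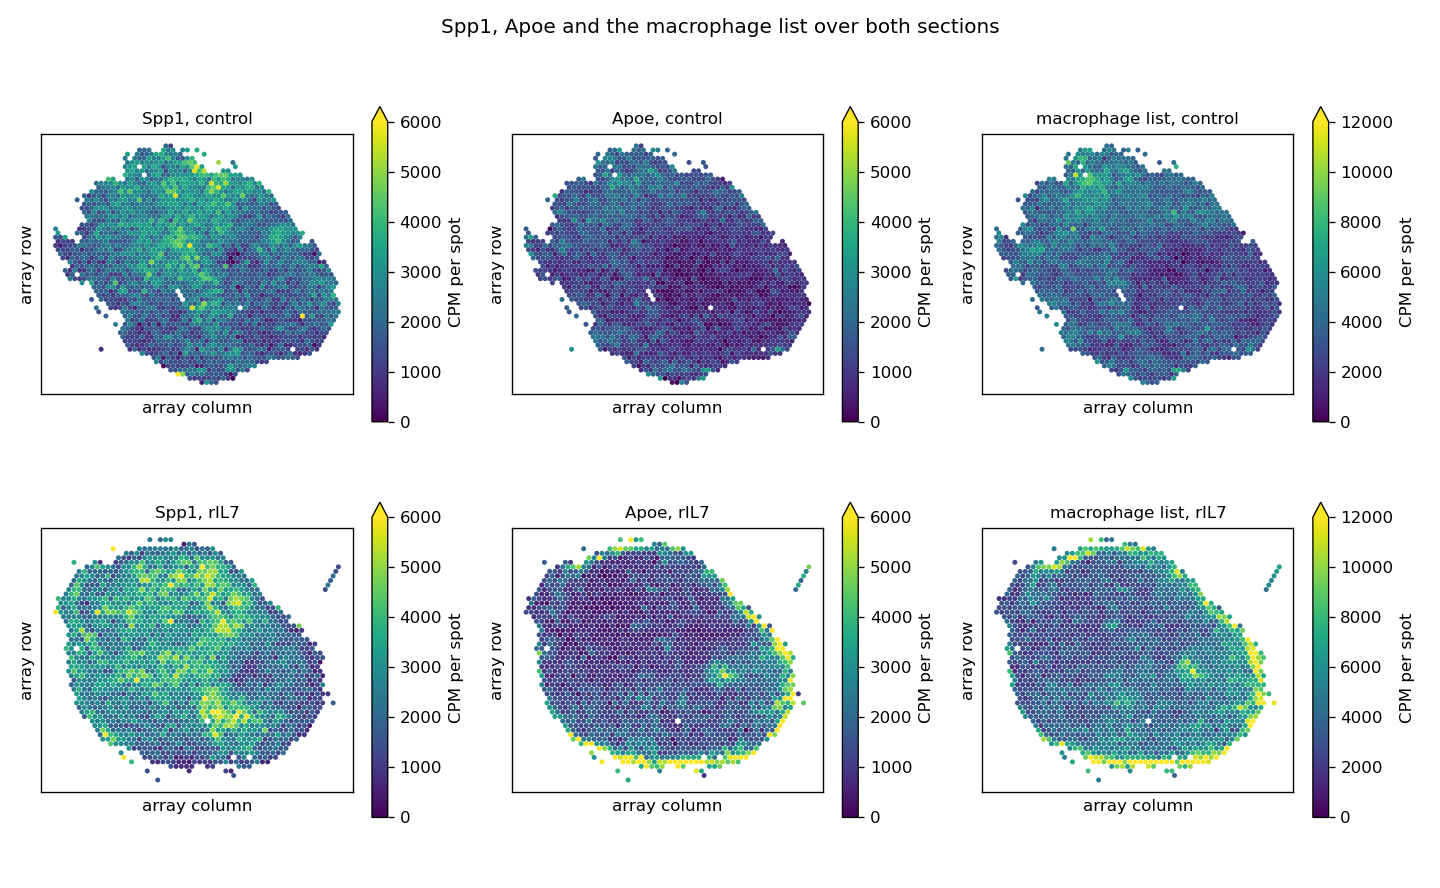
Each dot is 1 spot at its array position, coloured by CPM of Spp1, Apoe or the macrophage list (scales end at the values on the bars) in the control section above and the rIL7 section below. In rIL7, Apoe and the macrophage list form a bright rim where Spp1 is low, with edge levels of 3179, 6962 and 2262 CPM.

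The 8 genes did not vary across spots as a single group. Over their 28 pairs the median rho was 0.000648 for control and 0.00494 for rIL7 spots, with 1 and 4 pairs over 0.1, although low counts of Trem2, Gpnmb and Lpl hold rho near 0. Spp1 and Apoe, both abundant, had a rho of 0.145 in the control and -0.393 in rIL7. In the interior alone it was 0.154 in the control and -0.302 in rIL7. Within the 4 quadrants rho ran from -0.156 to 0.186 in the control, below 0 in 3 of them, and from -0.453 to -0.171 in rIL7. The positive value of the whole control section was thus seen within 1 of its 4 quadrants, and the negative value of rIL7 within 4 of 4.

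**Figure D4:**
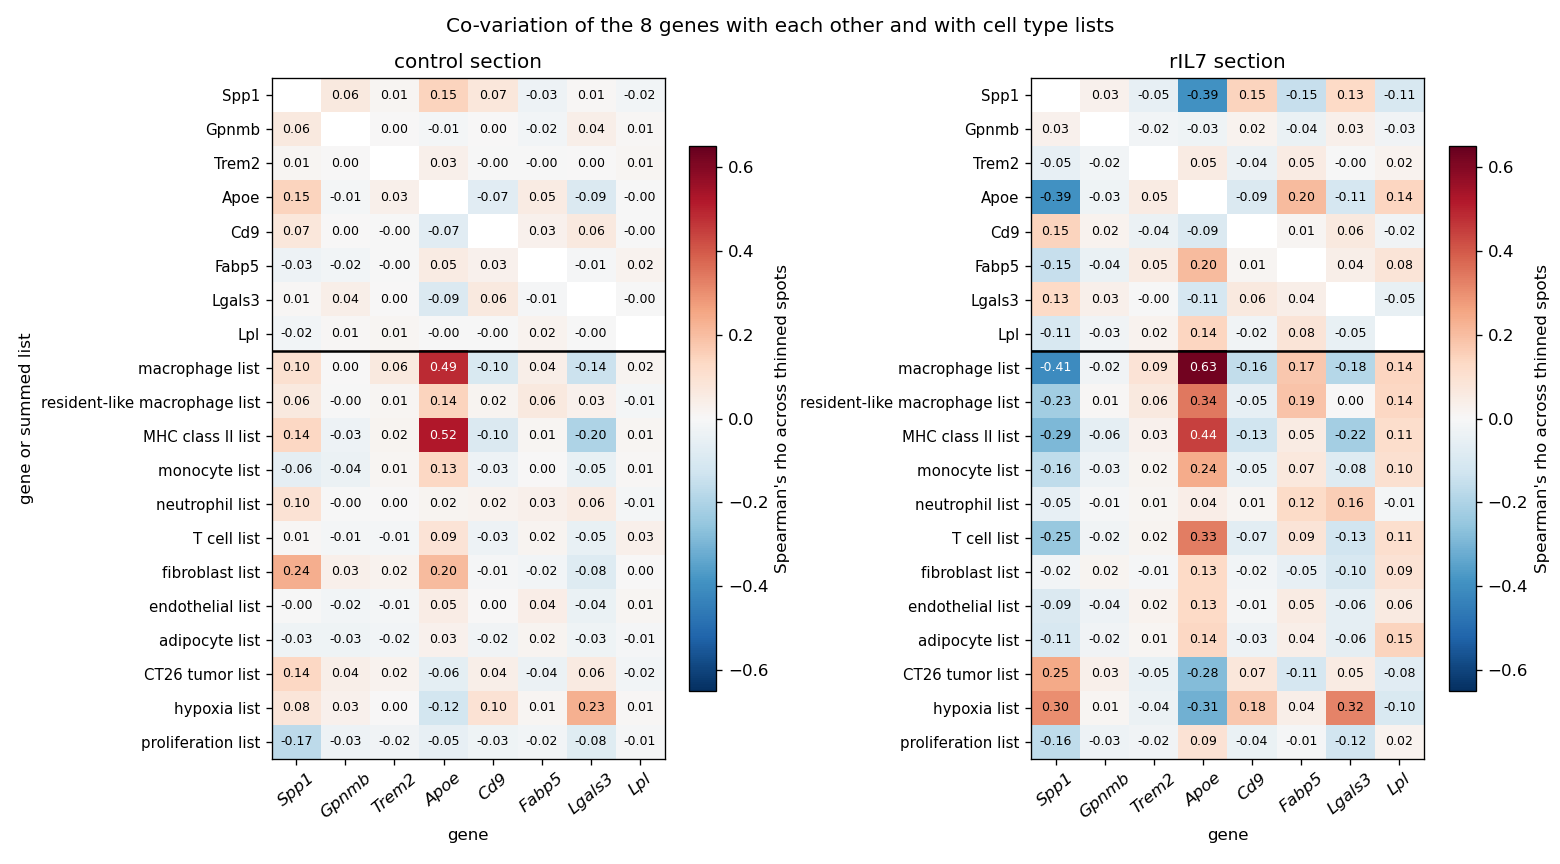
Spearman's rho across thinned spots between each of the 8 genes (columns) and the other genes or the summed UMIs of a cell type list (rows), for the control and rIL7 sections, coloured red above 0 and blue below. Apoe has its highest values with the macrophage and MHC class II lists in both sections, and Spp1 is at 0.103 in the control and -0.409 in rIL7 with the macrophage list.

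Of the 8 genes Apoe had the highest rho with the macrophage list, 0.487 in control tissue and 0.630 in rIL7, and 0.521 and 0.443 with the MHC class II list. Spp1 had a rho of 0.103 with the macrophage list in the control and -0.409 in rIL7, where it was below 0 with each of the 10 list genes, from -0.0903 for Cd68 to -0.351 for Lyz2. Without Lyz2 the values for Spp1 were 0.0545 and -0.387. Cd9 and Lgals3 were below 0 with the macrophage list in both sections, at -0.0991 and -0.158 for Cd9 and -0.142 and -0.184 for Lgals3. Trem2, whose product is largely confined to myeloid cells, had 0.0630 and 0.0867, which at its counts is no finding.

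The spots of each section were also ordered by macrophage list UMIs and divided into 5 equal parts. Apoe went from 795 CPM in the lowest part to 1732 CPM in the highest in the control, and from 897 to 3257 CPM in rIL7, with ratios of 2.18 (2.06 to 2.30) and 3.63 (3.45 to 3.82). Over the same parts Spp1 went from 2191 to 2441 CPM in control tissue, a ratio of 1.11 (1.07 to 1.16), and from 3300 to 2003 CPM in rIL7, a ratio of 0.607 (0.585 to 0.630). Trem2 had ratios of 1.32 (1.02 to 1.68) and 1.57 (1.21 to 2.05). Fabp5 had 1.14 (0.935 to 1.39) in the control and 2.35 (2.00 to 2.78) in rIL7, Lpl 1.33 (0.491 to 4.42) and 6.53 (2.94 to 15.3). Cd9 and Lgals3 were lower in the highest part in both sections, at 0.803 and 0.684 for Cd9 and 0.799 and 0.770 for Lgals3. The CT26 tumor list (Rpl39l and Baiap2l1) was lower in the highest part in both sections, going from 1332 to 1224 CPM in the control, where Spp1 was higher, and from 1177 to 801 CPM in rIL7, where Spp1 was lower too.

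**Figure D5:**
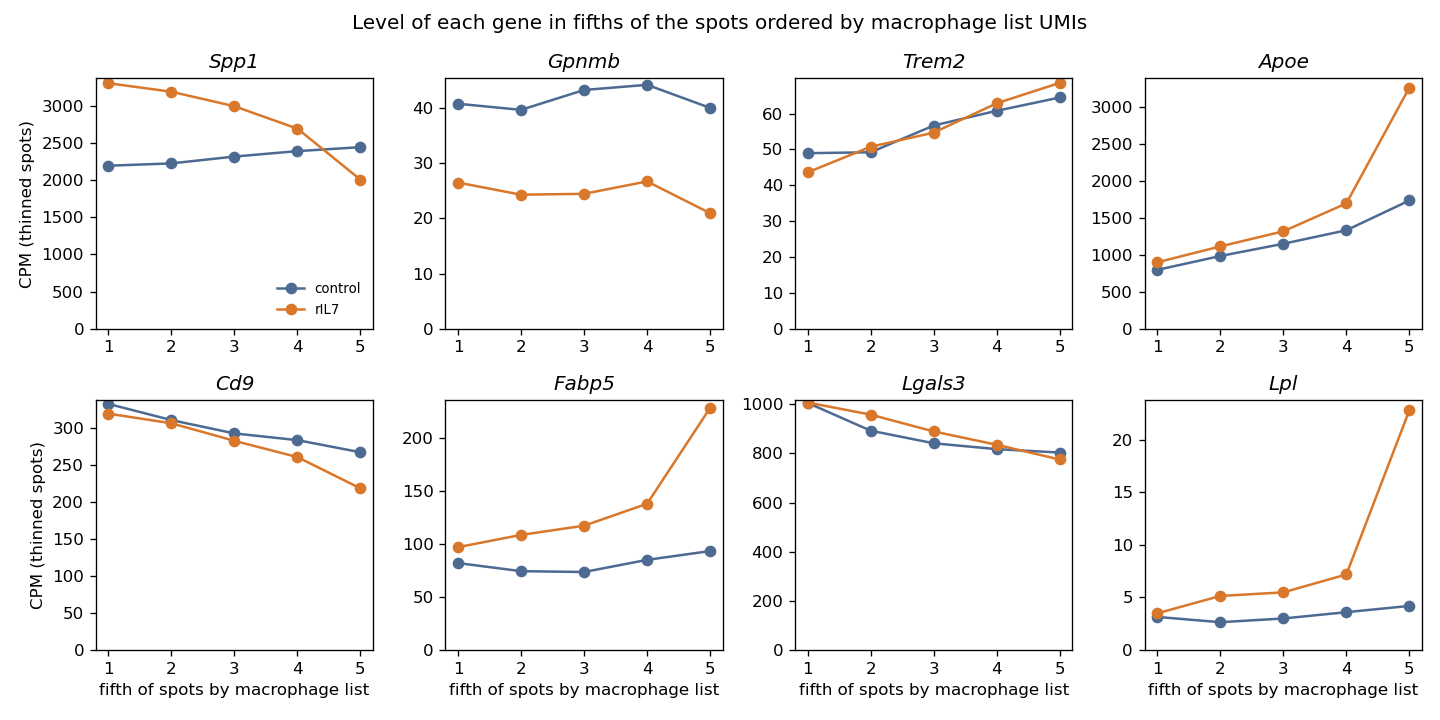
CPM of each gene in thinned spots, on the vertical axis, over 5 equal parts of the spots from the lowest (1) to the highest (5) macrophage list UMIs, for the control and rIL7 sections. Apoe climbs in both sections and Cd9 and Lgals3 drop in both, while Spp1 goes from 2191 to 2441 CPM in the control and from 3300 to 2003 CPM in rIL7.

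Lgals3, and more weakly Cd9, varied with oxygen-related genes in both sections, and Spp1 mainly in rIL7. Spp1 also varied with tumor genes. The hypoxia list holds glycolytic and hypoxia-induced genes such as Pgk1 and Bnip3. With it rho was 0.0768 for Spp1 in the control and 0.304 in rIL7. It was 0.233 and 0.323 for Lgals3, and 0.0958 and 0.177 for Cd9. In the interior alone Spp1 had 0.0340 in the control and 0.221 in rIL7. Apoe had -0.118 and -0.310 with that list. With the CT26 tumor list Spp1 had 0.136 and 0.247, Apoe -0.0644 and -0.280, and Lgals3 0.0563 and 0.0515. With fibroblast genes Spp1 had 0.235 in the control and -0.0173 in rIL7.

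Among 2189 genes with enough UMIs in both sections, those with the highest mean rho were named for each member. For Spp1 these were the matrix genes Mgp (0.371) and Fn1 (0.341) and the lysosomal protease Ctsl (0.338). For Apoe they were Lyz2 (0.456), the invariant chain gene Cd74 (0.436) and H2-Ab1 (0.422). Lgals3 was most like the glycolytic gene Ldha (0.250), the metallothionein Mt1 (0.248) and Aldoa (0.247), and Cd9 like Mt1 (0.139), Aldoa (0.110) and Pgk1 (0.109). Fabp5 was most like the chemokine genes Ccl8 (0.144) and Pf4 (0.120) and the lysosomal gene Psap (0.118). The highest values for Gpnmb, Trem2 and Lpl were all under 0.1 and are too weak to read. For Trem2 they were Lyz2 (0.0648), Csf1r (0.0479) and C1qa (0.0478), all of the macrophage list. Those of Gpnmb were Clu, Il1rl1 and Cebpd, and those of Lpl were Tmsb4x, Ccl8 and Psap.

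Few partners of the 8 genes in their pathways differed by 1.5-fold between the sections, and the genes named here are those with the largest ratios. Of the Spp1 receptor list, 6 of 9 genes reached 20 CPM, 5 were higher and 1 lower in rIL7 and 0 differed by 1.5-fold. Cd44 was at 193 and 234 CPM, and its ratio was 1.22 (1.17 to 1.26). Its quadrants did not overlap, which 10.0% of the genes compared also showed with rIL7 higher. Of the Trem2 signalling and shedding list, 6 of 7 reached 20 CPM and 0 differed by 1.5-fold, and the kinase gene Syk was at 19.3 and 26.0 CPM. Of 14 lysosomal genes and 8 galectin and galectin ligand genes compared, 0 passed 1.5-fold. Among the latter, the tetraspanin Cd81 was at 449.5 and 351 CPM, a ratio of 0.780 (0.759 to 0.803). Mitf, a transcription factor known to drive Gpnmb in several cell types, was at 17.7 and 25.2 CPM, a ratio of 1.43 (1.26 to 1.62), against the 0.597 of Gpnmb.

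For cholesterol export and Lpl control, 1 gene in each list passed 1.5-fold. Abca1, the transporter that passes cholesterol to Apoe and other carriers, went from 25.8 CPM to 61.8 CPM in rIL7, a ratio of 2.40 (2.18 to 2.64), among 10 of 13 genes compared. In the same list Pltp was at 83.7 and 122 CPM, and Nr1h3, encoding a sterol-sensing receptor, at 17.3 and 23.4 CPM. The quadrants of Abca1 did not overlap between sections, as for 10.0% of the genes compared with rIL7 higher, and those of Pltp and Nr1h3 did. Angptl4, an inhibitor of Lpl, had 105 and 158 CPM, a ratio of 1.503 (1.43 to 1.58), among 4 of 10 genes compared. Of the fatty acid uptake and lipid droplet list 9 of 17 genes were compared and 0 passed; Hilpda was at 55.3 and 74.0 CPM and Fabp4 at 106 and 132 CPM. Of the scavenger and efferocytosis receptors 4 were compared and 0 passed, with Stab1 at 142 and 209 CPM.

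Several cell type lists, which hold none of the 8 genes, also differed. The resident-like macrophage list summed to 342 CPM in control and 582 CPM in rIL7 tissue, with Pf4 2.02-fold (1.93 to 2.10) and Folr2 2.17-fold (1.95 to 2.42) higher. The osteoclast list, which holds proteases that macrophages and other cells can also make, was at 126 and 282 CPM, with Ctsk at 9.37 and 35.9 CPM and Mmp9 at 47.3 and 134 CPM. A further gene of that list, Ocstamp, named after its values were seen because it went the other way, was at 12.3 and 8.74 CPM. The neutrophil list was at 140 and 251 CPM, and its quadrants overlapped. Their part in the differences of Fabp5, Lpl and Gpnmb was not tested.

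The 8 genes lie apart on the genome (GRCm38, RefSeq gene bounds). Spp1 is at chr5:104435111-104441053, Fabp5 at chr3:10012585-10016610, Apoe at chr7:19696244-19701310 and Trem2 at chr17:48346401-48352276. Gpnmb is at chr6:49036518-49058182 and Cd9 on the same chromosome at chr6:125460266-125494760. Lgals3 is at chr14:47373860-47386167 and Lpl at chr8:68880555-68906932.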

How the data were processed

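The authors sequenced 1 Visium library per section and counted genes per spot with Space Ranger 1.1.0 against mm10 (GRCm38), and deposited raw UMI counts, used here as whole counts without normalization; spot positions were used as deposited and image scale factors were not used. Spots over tissue with under 10% mitochondrial UMIs and more than 200 genes were kept, which removed 2 control spots and 1 rIL7 spot. UMIs were summed per section, zone or quadrant and divided by the total of all genes (CPM). Intervals are exact Poisson for sums and Clopper-Pearson for ratios. With 1 section per group no test was run. Spearman's rho used spots thinned to 5900 UMIs, as the mean of 20 thinnings. The search for the genes with the highest rho with each member used only some of these thinnings. Genes counted past 1.5-fold had a mean of at least 20 CPM.

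The 8 genes, 8 pathway lists and 16 cell type lists were chosen with earlier results of these data known. All 8 are described; up to 4 genes with the largest ratio at 20 CPM could be named from a list, some of which are not reported here, and per gene the 3 with the highest rho among genes of at least 0.5 UMI per thinned spot. Coordinates are from RefSeq, matched by symbol for 8 of 8. Scripts were tested on simulated data. Alternatives were other spot filters, CPM minimums, scalings (edgeR 4.0.16, DESeq2 1.42.0, R 4.3.3), edge widths, spot weights, zones and thinning depths; leaving out adipocyte spots or Lyz2 and splitting rho by quadrant were added after the data were seen. Python 3.11.15, numpy 2.4.6, scipy 1.17.1 and pandas 2.3.3 were used.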

Additional observations from a re-analysis of the deposited data

Results flagged for a closer look

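The relation of Spp1 to Apoe had opposite signs in the sections, with a rho across thinned spots of 0.145 in the control and -0.393 in rIL7. Within quadrants rho was below 0 in 3 of 4 in the control, from -0.156 to 0.186, and in 4 of 4 in rIL7. Likewise Spp1 was higher in the fifth of spots with most macrophage list UMIs than in the fifth with fewest in the control, a ratio of 1.11, and lower in rIL7, a ratio of 0.607. Both were picked out because the direction differed between the groups. The difference itself was not tested, since each group is 1 section.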

How the results depend on the processing

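No paired analysis was possible because each group has 1 section. Directions of Fabp5, Gpnmb, Apoe and Lpl between sections held under every alternative run. Lgals3 turned to a log2 ratio of -0.0061 with spots weighted equally and to -0.087 at the edge, and Spp1 to -0.020 at the edge. The median log2 ratio over the 8 genes was 0.097 in the interior alone and 0.026 at the edge. Genes past 1.5-fold numbered 247, and 586 at a minimum of 5 CPM and 1956 with no CPM minimum but at least 20 UMIs over both sections. The control edge median, -0.035, became 0.031 with an edge of 1 step and -0.096 with spots weighted equally. Unthinned spots gave a median pair rho of 0.0151 (control) and 0.0317 (rIL7). The median share of spots with a UMI was 40.1% and 42.6% when thinned to 3000 UMIs and 70.6% and 82.5% unthinned. The rho of Gpnmb with the macrophage list in rIL7, -0.0228, was 0.00960 in the interior. Depth limits Lpl, Gpnmb and Trem2 most. With 1 section per group, animal, section and library cannot be told apart from treatment.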
